A study of Mus musculus with 8 samples.

Results

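The ABC transporter genes of the mouse liver were followed between mice fed a normal diet (ND) and mice fed a high-fructose diet (HFrD). They were taken by name, as every gene whose symbol is Abc, a subfamily letter from a to g, a number and, in some, a further letter. This gave 50 of the 22564 protein-coding genes in the deposited table. Liver RNA of 8 male C57BL/6J mice was measured by RNA-Seq, with 1 library per mouse. Per the labels the mice were 10 to 11 weeks old when the diets began, whereas the methods give this as their age when bought. ND mice 1, 3, 6 and 7 received the ND for 2 weeks, and HFrD mice 1, 2, 5 and 7 received the HFrD, in which 10% of the energy came from fat, 70% from carbohydrate and 20% from protein. The composition of the ND was not given in the sources used here. No genetic change was given for these mice, and whole liver was taken, so that hepatocytes were measured together with the other cells of the organ. The study asked whether RNA methylation takes part in fatty liver caused by fructose, and the transcript levels of these mice were measured for it.

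ABC transporters are membrane proteins that use ATP to carry lipids, bile salts, drug conjugates or metals across a membrane. In the hepatocyte, several of them sit in the canalicular membrane and secrete the components of bile, others face the blood, and others lie in peroxisomes, mitochondria or lysosomes. The ABCE and ABCF proteins share the ATP-binding domains but have no membrane part and act on ribosomes.

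Expression is given as FPKM, a fragment count corrected for transcript length and for library size, so that levels may be compared between genes. For the test, log2(FPKM + 1) was fitted with limma, which estimates the spread of each gene with help from all genes, and p values were adjusted over the 11476 genes whose mean reached 0.5 FPKM. A gene was called at an adjusted p under 0.05, and fold changes on the log2(FPKM + 1) scale understate the change of genes with low FPKM. Values after ± are SDs over the 4 mice of a diet. The absolute depth is unknown. Relative to ND mouse 1 it was estimated at 0.991 to 1.17 in the ND and 1.13 to 1.49 in the HFrD libraries. The estimate is the most frequent ratio of FPKM among genes under 0.5 FPKM in both libraries, assumed to hold 1 fragment in each. It rested on 34 to 152 genes. Genes above 0 numbered 13755 to 13973 and 14053 to 14392, and the Mup genes took 12.0 to 15.2% and 6.73 to 9.78% of the summed FPKM, in both cases without overlap between the diets. All 8 hepatocyte markers were above the filter, and 1 of them (*Ttr*) was called, as higher. That count was 0 without any 1 library other than HFrD mouse 1, 2 without HFrD mouse 1 and 3 without HFrD mouse 1 and ND mouse 7.

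Of the 50 ABC genes, 38 were expressed above the filter. In HFrD livers, mRNA of the conjugate exporters *Abcc3* and *Abcc2* and of the lipid transporters *Abca8a* and *Abca6* was lower, and mRNA of the cholesterol exporter *Abcg1*, the peroxisomal transporter *Abcd2* and the phospholipid transporter *Abca3* was higher. These 7 are 18.4% of the genes tested, against 9.12% of all genes. The 3 higher and 4 lower compare with 5.44% and 3.69% of all genes called in those directions. The diets did not overlap for 10 of the 38, 5 higher and 5 lower, that is 26.3% against 16.6% of all genes. The other 31 did not pass. An unadjusted limma p under 0.05 was reached by 14 of the 38, the 7 called included, and by 2925 of the 11476 genes. The median log2 change was -0.05 over the 38 and 0.01 over all genes. The study's own lists of changed genes include *Abcd2*, *Abca3* and *Abca8a*, among genes also changed in leptin receptor-deficient (*db/db*) mice. *Abcd2* is also listed there among the top genes with both more RNA methylation and more mRNA in HFrD livers, and among changed lipid metabolism genes. The HFrD side of the mRNA lists was chosen on the same libraries, so the direction of these genes is not independent evidence.

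The calls were not equally firm. *Abcc3* and *Abcc2* passed with each library left out in turn. With each of the 8 libraries left out in turn, between 2 and 9 members were called. The count was 2 without ND mouse 3 or HFrD mouse 7 and 3 without HFrD mouse 2 or HFrD mouse 5. It was 4 without ND mouse 1 or ND mouse 6 and 9 without ND mouse 7, and without HFrD mouse 1 it lay within that range. Over all genes, 1047 of 11476 were called with all libraries. That count was 570 of 11469 without ND mouse 3 and 584 of 11464 without HFrD mouse 7. In those fits members were called at about the rate of all genes. With no filter on low values 3 were called, beside 800 of 15825 genes. Leaving out HFrD mouse 1 and ND mouse 7 together gave 10 calls (2 higher, 8 lower), beside 1356 of 11446 genes. But these libraries were picked as the nearest to the other diet, so that leaving them out widens the difference by construction.

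**Figure D1:**
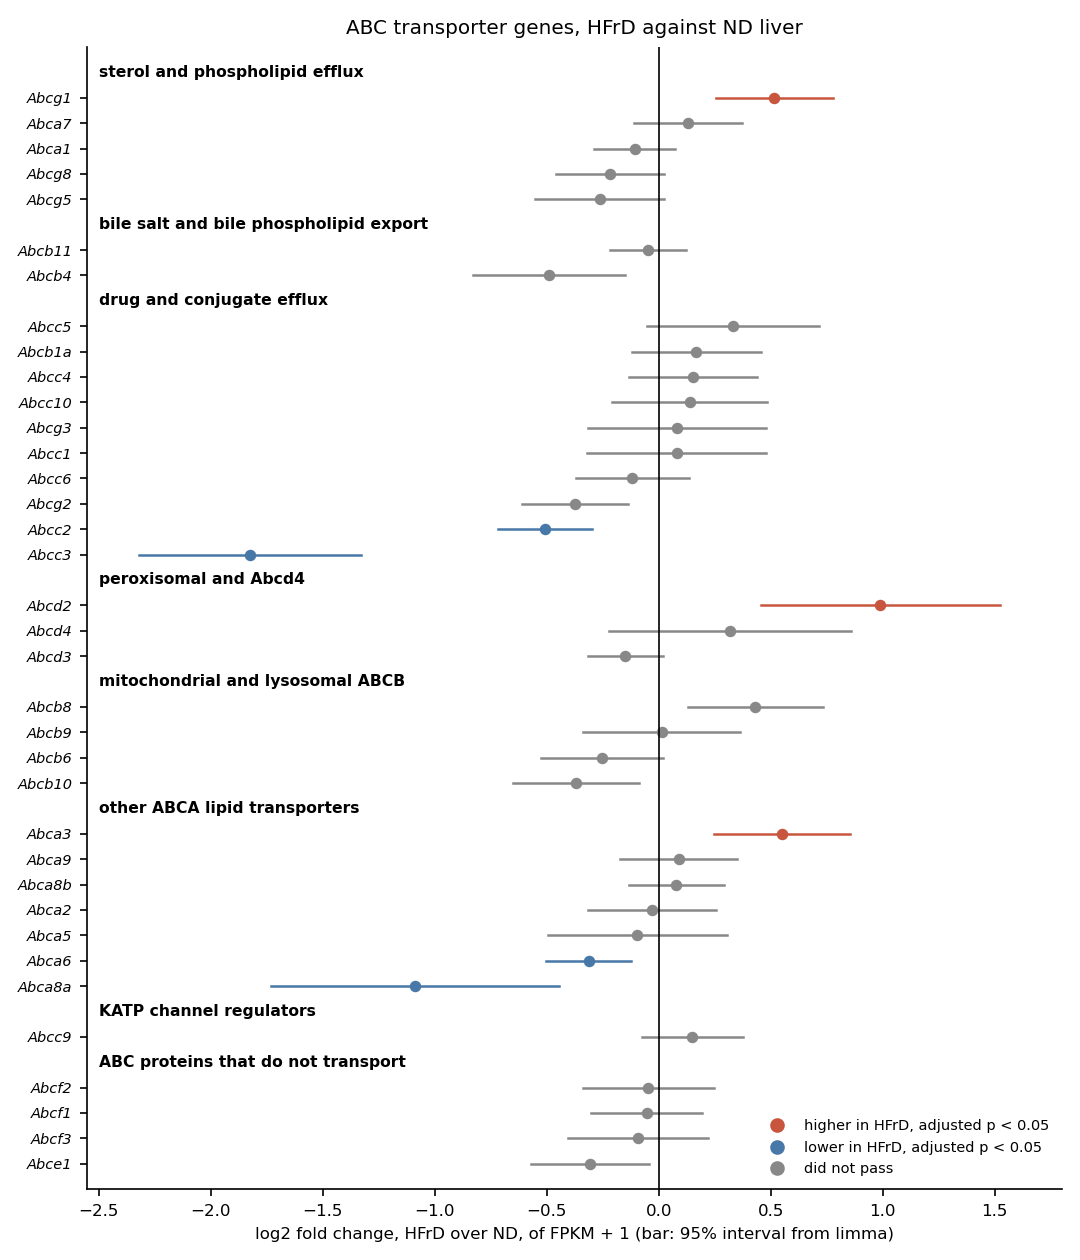
The 36 ABC genes tested and reported here, grouped by role, with the log2 change of FPKM + 1 (HFrD over ND) on the x axis. Points are the estimates and bars the 95% intervals from limma; 3 genes passed as higher (red), 4 as lower (blue), and *Abcc3* lies farthest from 0, at -1.82.

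The family was dominated by a few genes. *Abcd3*, *Abcc2* and *Abcb11* had a mean above 100 FPKM, 16 members lay between 10 and 100, and 19 between 0.5 and 10. The top 5 by mean level made up 61.7% of the summed FPKM of the family in ND livers. That sum was 1261 ± 64.0 FPKM (SD, n = 4) in ND and 1024 ± 45.1 (SD, n = 4) in HFrD livers, with ranges of 1188 to 1342 and 984.5 to 1085 that did not overlap. Of the 19 members with a mean of at least 10 FPKM, 17 had a log2 change below 0 (89.5%, against 53.6% of the 4332 genes at that level), with a median of -0.25 against -0.02. Of these 19, 4 were called lower and 1 higher, beside 3.69% and 5.44% of all genes tested. The share called among the 4332 genes at that level was not counted. Between 16 and 17 of the 19 stayed below 0 in every alternative fit.

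The conjugate exporters carry what the liver has coupled to glucuronate, glutathione or sulfate. Abcc3 passes such conjugates and bile salts over the basolateral membrane to the blood, and Abcc2 passes them over the canalicular membrane into bile. *Abcc3* (chromosome 11 of GRCm38, 94343295 to 94392997, minus strand) had 64.7, 53.0, 55.2 and 48.6 FPKM in ND mice 1, 3, 6 and 7. It had 24.2, 14.0, 9.44 and 15.0 FPKM in HFrD mice 1, 2, 5 and 7. Every HFrD liver was well below every ND liver, and HFrD mouse 1 was the highest of its group. The means were 55.4 ± 6.80 and 15.7 ± 6.20 FPKM (SD, n = 4 each), 3.54-fold lower in HFrD, with a log2 change of -1.82 (SE 0.22, limma adjusted p = 0.00183). The adjusted p stayed between 1.64e-04 and 0.00849 when each library was left out in turn.

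*Abcc2* (chromosome 19, 43782192 to 43840740, plus strand) was the most abundant member in ND livers, with 270.4, 223, 217 and 246 FPKM in ND mice 1, 3, 6 and 7. In HFrD mice 1, 2, 5 and 7 it had 182, 159, 156 and 173 FPKM, again without overlap. The means were 239 ± 24.2 and 168 ± 12.0 FPKM (SD, n = 4 each) and a log2 change of -0.51 (SE 0.09, limma adjusted p = 0.0111). In 1 of 4 ND livers and in 4 of 4 HFrD livers *Abcd3* stood above it. The FPKM of *Abcc3* was 0.232 ± 0.0242 of that of *Abcc2* in ND and 0.0920 ± 0.0303 in HFrD livers (SD, n = 4 each), without overlap (exact two-sided permutation p = 0.0286, the smallest that 4 mice against 4 allow; 0.0714 adjusted over the 5 ratios compared).

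The 250 bases before the RefSeq start of *Abcc2* are shown because the gene is known as a target of the receptors that sense xenobiotics and bile acids. They are chromosome 19, 43782058 to 43782307, of the RefSeq annotation on GRCm38.p6, plus strand, with capitals for the motif matches. The RefSeq start, 43782308, lies 116 bases inside the GENCODE gene, whose position is given above.

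Abcc2: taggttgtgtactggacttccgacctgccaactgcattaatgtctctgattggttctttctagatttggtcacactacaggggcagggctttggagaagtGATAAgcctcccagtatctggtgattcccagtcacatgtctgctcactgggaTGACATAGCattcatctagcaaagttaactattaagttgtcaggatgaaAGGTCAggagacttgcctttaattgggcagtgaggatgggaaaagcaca

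Both strands were searched for AGGTCA, a binding motif of nuclear receptors, and for CACGTG, called the E-box. They were also searched for TATAAA, found before the starts of some genes, for GATAA, bound by GATA factors, and for TGANNNNGC, the core of the antioxidant response element. This window held AGGTCA 43 bases, TGANNNNGC 89 bases and GATAA 145 bases before the RefSeq start, with no overlap among them. By the GENCODE position, AGGTCA and TGANNNNGC lie inside the gene and GATAA lies before it. Of 32851 RefSeq promoter windows of this length, 14.0% held AGGTCA, 35.2% TGANNNNGC and 22.6% GATAA. A match describes the letters and not a bound site. RefSeq windows were matched for 38 of the 50 members.

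*Abcg2*, which exports sulfate conjugates and urate, had 80.1, 76.5, 96.8 and 72.3 FPKM in ND mice 1, 3, 6 and 7 and 57.6, 65.3, 68.7 and 58.0 FPKM in HFrD mice 1, 2, 5 and 7. The groups did not overlap, but the gene just missed the threshold, with a log2 change of -0.37 (95% interval -0.61 to -0.14, limma adjusted p = 0.0555). It passed in 3 of 10 other settings and in 1 of 8 fits with a library left out. Of the 12 genes in this role, 10 were tested, 2 fell, 0 rose and 8 missed the threshold.

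The remaining genes grouped here under drug and conjugate efflux were low, apart from *Abcc6*, a transporter needed for the release of ATP from hepatocytes. *Abcc6* had 30.1 ± 3.56 and 27.6 ± 3.33 FPKM (SD, n = 4 each). Its log2 change was -0.12 (95% interval -0.37 to 0.13). *Abcc5*, *Abcc10*, *Abcg3*, *Abcc1*, *Abcb1a* and *Abcc4* had group means between 0.527 and 3.20 FPKM and log2 changes between 0.08 and 0.33, none of which passed. *Abcb1b* lay below the filter, at 0.504, 0.763, 0.519 and 0.590 FPKM in the 4 ND mice and 0.251, 0.338, 0.367 and 0.359 in the 4 HFrD mice. Its groups did not overlap, and *Abcb1a*, a close paralog with which it may share some reads, had 0.532 ± 0.140 and 0.721 ± 0.158 FPKM (SD, n = 4 each). In a fit with no filter *Abcb1b* had a log2 change of -0.26 (limma adjusted p = 0.0630).

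**Figure D2:**
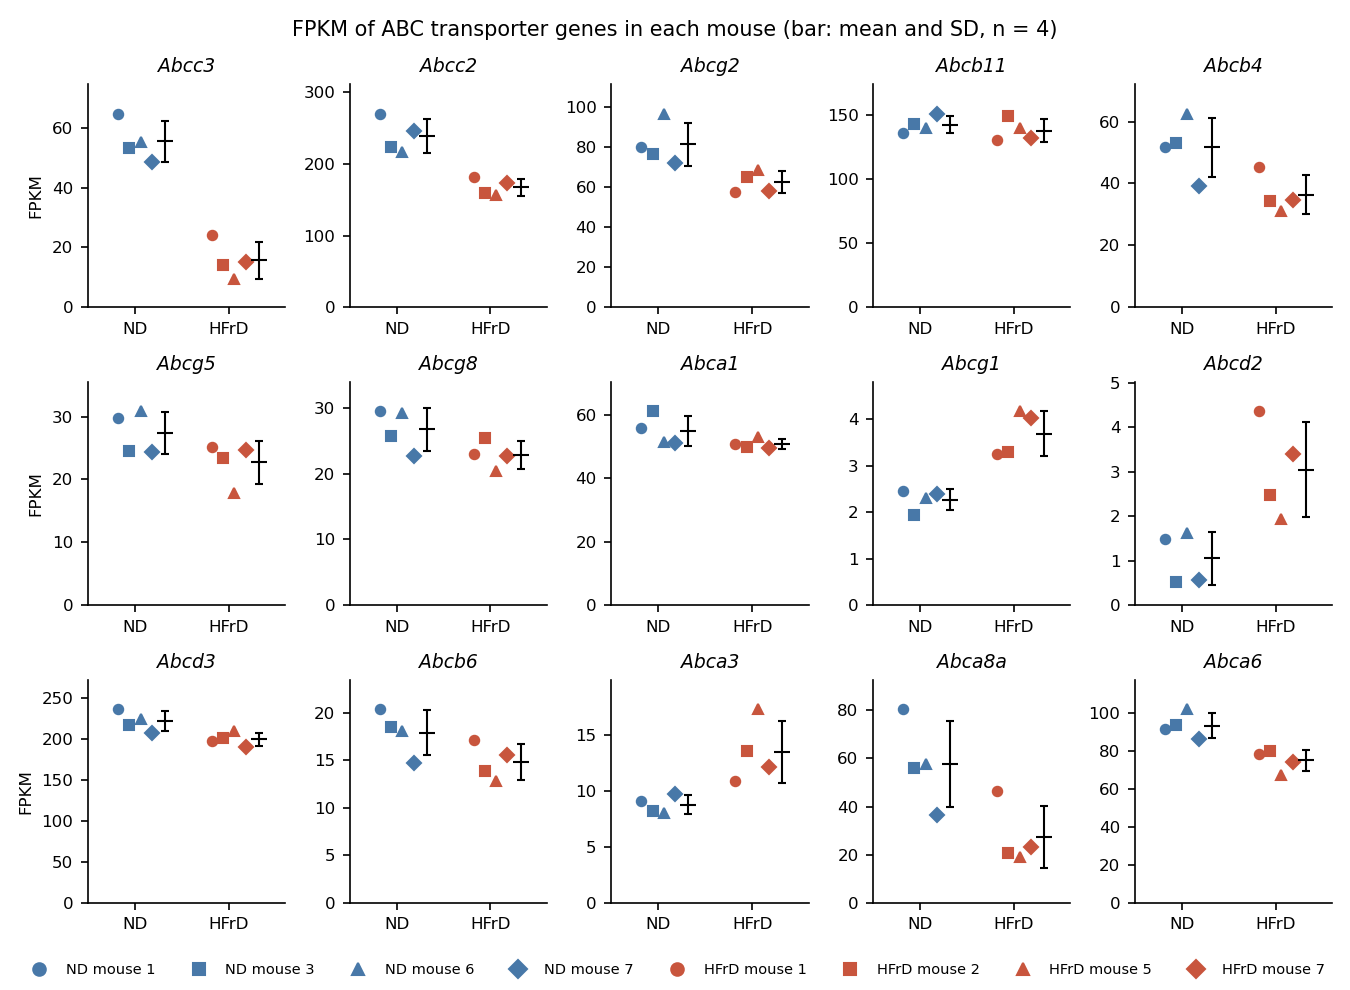
FPKM (y axes, each from 0) of 15 ABC genes in each mouse, ND in blue and HFrD in red, with the mean and SD of 4 mice beside the points; a marker shape names a mouse within its diet and pairs no animals. *Abcc3* and *Abcc2* are lower in every HFrD mouse, *Abcg1*, *Abcd2* and *Abca3* are higher, and *Abcb11* overlaps between the diets, with means of 143 and 138 FPKM.

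The genes around these exporters were also examined. Counts in this and the later lists are to be read beside the 5.44% of all genes called higher and the 3.69% called lower. Those shares are for all 8 libraries. With a library left out, the 624 genes called higher became 340 to 659 and the 423 called lower became 183 to 634. The lists held genes of the Slco and Slc22 carrier families, some of which take up compounds from blood, and genes of conjugating enzymes. A further list held genes that encode or are controlled by the xenobiotic receptors PXR (*Nr1i2*), CAR (*Nr1i3*) and AHR (*Ahr*) or by NRF2 (*Nfe2l2*). Of 24 conjugating enzyme genes tested, 12 fell, 4 rose and 8 missed the threshold, with a median log2 change of -0.55. The glucuronosyltransferase genes *Ugt2b35* (143 ± 10.4 to 66.5 ± 7.04 FPKM) and *Ugt2b5* (624 ± 27.4 to 315 ± 38.5 FPKM), the glutathione transferase gene *Gsta4* (36.4 ± 2.62 to 12.4 ± 2.72 FPKM) and the sulfotransferase gene *Sult2a8* (799.5 ± 50.9 to 348 ± 70.5 FPKM) had the smallest adjusted p of these, and all fell. *Gsta3*, the most abundant gene of the list, had 1246 ± 44.9 and 1056 ± 100.2 FPKM and did not pass. The higher genes were *Ugt1a5*, *Gstm2*, *Gstt1* and *Sult1a1*. Members of the Ugt, Gst and Sult families are close copies of each other and may share reads.

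Of 10 Slco and Slc22 carrier genes, 5 were lower and 0 higher. Among them *Slc22a30* fell from 118 ± 7.43 to 55.9 ± 13.3 FPKM, *Slco1a4* from 35.7 ± 5.10 to 13.7 ± 5.06 FPKM and *Slco1b2*, which takes up bilirubin and bile salts, from 582 ± 61.1 to 412.5 ± 57.9 FPKM, and *Slco1a1* and *Slco2a1* fell as well. The count was 3 without ND mouse 1, ND mouse 3, ND mouse 6, HFrD mouse 5 or HFrD mouse 7. Of 15 genes of xenobiotic sensing, 5 were lower and 1 (*Keap1*) was higher. *Cyp1a2*, an AHR target, fell by 1.38 on the log2 scale (limma adjusted p = 2.52e-04), *Cyp2b10*, a CAR target, by 1.05 and *Cyp3a11*, a PXR target, by 2.09, and *Por* and *Gclm* were the other genes that fell. This count of 6 called was 3 without any 1 of ND mouse 1, ND mouse 3, ND mouse 6, HFrD mouse 2 or HFrD mouse 5. The study's tables of changed genes, made from these libraries, name members of the conjugation and xenobiotic lists, among them *Gsta2*, *Ugt1a5*, *Cyp1a2* and *Cyp2b10*. Whether these genes and the exporters share a cause was not tested.

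**Figure D3:**
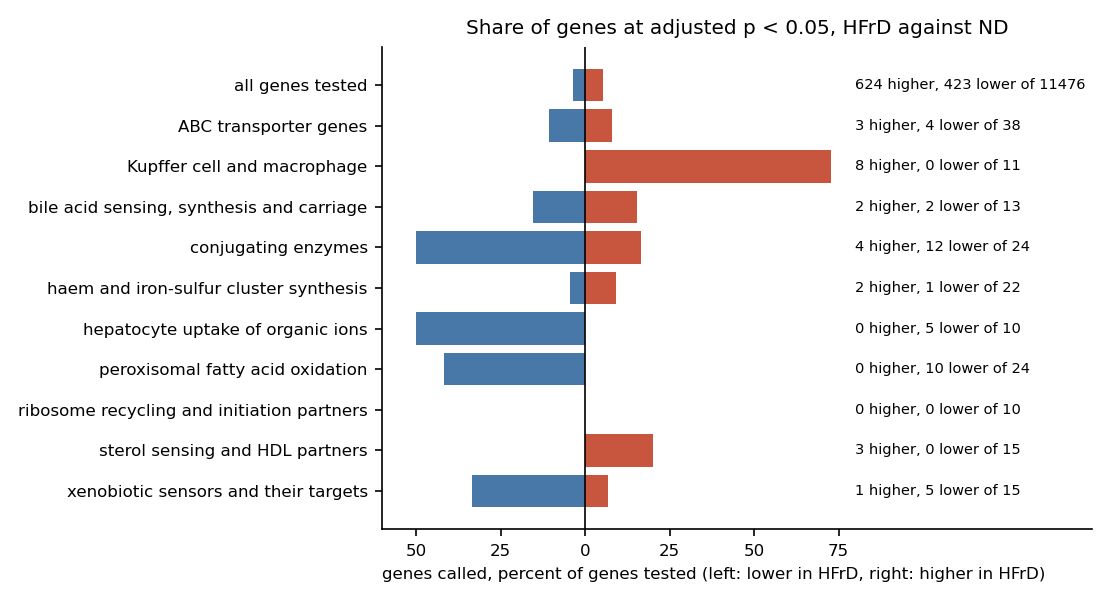
Genes called at an adjusted p under 0.05 in limma, as a percentage of the genes tested (x axis, lower in HFrD to the left in blue, higher to the right in red), for all genes, the ABC genes, 8 lists of partner genes and the macrophage markers. The counts are printed beside the bars, from 624 higher and 423 lower of 11476 for all genes to 12 lower of 24 conjugating enzymes and 8 higher of 11 macrophage markers.

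The canalicular bile salt pump Abcb11 and the phospholipid transporter Abcb4, which supplies phosphatidylcholine to bile, share the canalicular membrane and did not pass the test. *Abcb11* had 136, 144, 139.8 and 151 FPKM in ND mice 1, 3, 6 and 7 and 130.5, 149.6, 139.96 and 132 FPKM in HFrD mice 1, 2, 5 and 7. The ranges overlapped, although HFrD mice 1 and 7 were below all ND mice and ND mouse 7 was above all HFrD mice, with a log2 change of -0.05 and a 95% interval from -0.22 to 0.12 (limma adjusted p = 0.740). *Abcb4* had 51.8, 53.1, 62.6 and 39.3 FPKM in the same ND mice and 45.5, 34.2, 31.2 and 34.8 FPKM in the same HFrD mice. Only ND mouse 7 and HFrD mouse 1 crossed. The log2 change of *Abcb4* was -0.49 (95% interval -0.83 to -0.15), which did not pass (limma adjusted p = 0.0731), but it passed in 4 of 10 other settings and when ND mouse 7 or HFrD mouse 1 was left out. The ratio of *Abcb4* to *Abcb11* was 0.364 ± 0.0781 in ND and 0.266 ± 0.0580 in HFrD livers (SD, n = 4 each; exact permutation p = 0.0857, adjusted over 5 ratios 0.143).

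Around them, 2 of 13 bile acid genes were higher and 2 lower. The sinusoidal bile salt carrier gene *Slc10a1* rose from 208 ± 13.1 to 326 ± 34.0 FPKM and the cholic acid enzyme gene *Cyp8b1* from 83.1 ± 16.6 to 156 ± 41.3 FPKM. *Cyp7b1*, an enzyme of the alternative pathway of bile acid synthesis, fell from 264 ± 47.2 to 65.2 ± 21.1 FPKM, a log2 change of -2.03 (limma adjusted p = 7.72e-04), and the amino acid conjugating enzyme gene *Baat* fell from 161 ± 4.04 to 110.4 ± 18.8 FPKM. *Cyp7b1* is also named in the study's tables. *Slc27a5*, the bile acid CoA ligase and the most abundant gene of the list, had 639 ± 69.0 and 496 ± 67.2 FPKM and did not pass (limma adjusted p = 0.0787). The 4 calls became 2 without ND mouse 3 or without HFrD mouse 5.

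Among the sterol transporters, which move cholesterol and phospholipid to HDL or bile, 5 of 6 genes were tested and *Abcg1* was called. It had 2.45, 1.93, 2.31 and 2.38 FPKM in ND mice 1, 3, 6 and 7 and 3.25, 3.29, 4.17 and 4.04 FPKM in HFrD mice 1, 2, 5 and 7. The level was low in both diets and the groups did not overlap. The means were 2.27 ± 0.232 and 3.69 ± 0.484 FPKM (SD, n = 4 each), a ratio of 1.62 and a log2 change of 0.52 (SE 0.12, limma adjusted p = 0.0239). The call was lost without ND mouse 3, ND mouse 6, HFrD mouse 5 or HFrD mouse 7 (adjusted p at most 0.0696). *Abcg1* is abundant in macrophages, and of 11 markers of Kupffer cells and macrophages 8 were higher and 0 lower in HFrD livers, with a median log2 change of 0.85. Their summed level was 111 to 182 FPKM in ND and 212 to 330.4 FPKM in HFrD livers, and none was at 0 in every library. The count of 8 was 5 without HFrD mouse 7. The markers' part in the level of *Abcg1* was not tested, and in whole liver a larger number of cells of a type cannot be told apart from more RNA per cell.

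*Abca1*, which starts the formation of HDL, was the most abundant sterol transporter, with 55.9, 61.2, 51.5 and 51.1 FPKM in ND mice 1, 3, 6 and 7 and 50.7, 49.8, 53.0 and 49.7 FPKM in HFrD mice 1, 2, 5 and 7. The groups overlapped, and the log2 change was -0.11 (95% interval -0.29 to 0.07, limma adjusted p = 0.452). The ratio of *Abca1* to *Abcg1* was 24.5 ± 4.77 in ND and 13.9 ± 1.67 in HFrD livers (SD, n = 4 each), without overlap (exact permutation p = 0.0286, adjusted over 5 ratios 0.0714). *Abca7* was below 1 FPKM in all 8 mice. Its groups did not overlap, at 0.621 to 0.718 FPKM in ND and 0.749 to 0.881 in HFrD livers, but the log2 change of 0.13 did not pass (limma adjusted p = 0.483). *Abcg4* was at 0 in 6 mice and nearly 0 in the other two.

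*Abcg5* and *Abcg8* encode the partners of a single sterol exporter of the canaliculus and lie on opposite strands of chromosome 17. *Abcg5* had 29.8, 24.5, 30.8 and 24.4 FPKM in ND mice 1, 3, 6 and 7 and 25.1, 23.3, 17.8 and 24.7 FPKM in HFrD mice 1, 2, 5 and 7. *Abcg8* had 29.5, 25.7, 29.3 and 22.6 FPKM and 23.0, 25.4, 20.3 and 22.7 FPKM in the same mice. The level of *Abcg5* was 0.873 to 1.09 times that of *Abcg8* in each liver, and the diets overlapped for both. Their log2 changes were -0.26 (95% interval -0.55 to 0.02) and -0.22 (95% interval -0.46 to 0.02). The ratio of *Abcg5* to *Abcg8* was 1.02 ± 0.0536 in ND and 0.993 ± 0.114 in HFrD livers (SD, n = 4 each; exact permutation p = 0.600). In the annotation, exons of these genes overlap on opposite strands, and the authors' locus is the same for both. No source used here states the strand setting of the quantification, so reads in the overlap could count for either.

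The stretch between the RefSeq start of *Abcg5* (84683011) and a RefSeq start of *Abcg8* (84683121) is shown because it lies before both. RefSeq also has a start of *Abcg8* at 84676302, inside *Abcg5*, which is the start of the GENCODE gene. It is chromosome 17, 84683012 to 84683120 on GRCm38.p6, 109 bases, given on the strand of *Abcg8*, with capitals for motif matches.

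Abcg5-Abcg8: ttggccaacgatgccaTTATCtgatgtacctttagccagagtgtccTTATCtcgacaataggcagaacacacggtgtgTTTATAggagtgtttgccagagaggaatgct

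Of the motifs above, GATAA was found at 2 places and TATAAA at 1, all on the strand of *Abcg5* and with no overlap. Over the 109 bases before all 32851 RefSeq starts, 9.36% held GATAA and 5.90% held TATAAA.

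Of 15 tested genes of sterol sensing and HDL, 3 were higher and 0 lower, with or without any single library. The phospholipid transfer protein gene *Pltp* rose from 6.82 ± 0.534 to 21.2 ± 1.99 FPKM, a log2 change of 1.50 (limma adjusted p = 1.67e-04). The lysophospholipid acyltransferase gene *Lpcat3* rose from 40.5 ± 2.63 to 56.3 ± 2.51 FPKM and the cholesterol binding protein gene *Npc2* from 9.71 ± 0.852 to 14.6 ± 1.05 FPKM. *Apoe*, the most abundant of the list, had 5796 ± 278 and 6733 ± 963 FPKM and did not pass.

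**Figure D4:**
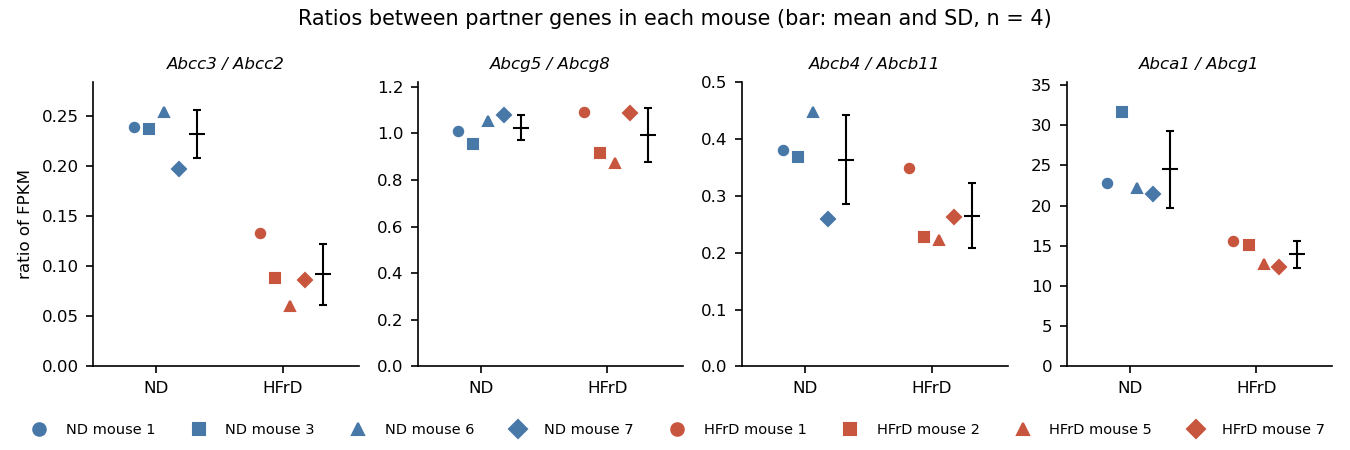
Ratio of FPKM (y axes, each from 0) between 4 pairs of partner genes in each mouse, ND in blue and HFrD in red, with the mean and SD of 4 mice. The diets do not overlap for *Abcc3* to *Abcc2* and *Abca1* to *Abcg1*, whereas *Abcg5* to *Abcg8* stays near 1 (1.02 and 0.993).

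The ABCD proteins pair in the peroxisomal membrane to admit acyl-CoAs for oxidation, except Abcd4, which acts in lysosomal cobalamin transport. *Abcd3*, which admits branched-chain acyl-CoAs and bile acid precursors, had 236, 217, 224 and 207 FPKM in ND mice 1, 3, 6 and 7 and 197, 201, 209 and 190.1 FPKM in HFrD mice 1, 2, 5 and 7. The groups overlapped between HFrD mouse 5 and ND mouse 7, and the log2 change was -0.15 (95% interval -0.32 to 0.02, limma adjusted p = 0.246). *Abcd2*, a transporter of very long-chain and polyunsaturated acyl-CoAs, was far less abundant, at 1.49, 0.519, 1.61 and 0.563 FPKM in ND mice 1, 3, 6 and 7. It had 4.35, 2.48, 1.94 and 3.40 FPKM in HFrD mice 1, 2, 5 and 7. All HFrD mice were above all ND mice, with a wide spread inside each diet. The means were 1.05 ± 0.587 and 3.04 ± 1.06 FPKM (SD, n = 4 each), 2.91-fold higher in HFrD, with a log2 change of 0.99 (SE 0.24, limma adjusted p = 0.0312). The call held without ND mouse 1, ND mouse 6 or HFrD mouse 5 and was lost without any other single library (adjusted p at most 0.0844) and in 2 of 10 other settings.

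*Abcd4* ranged from 0.637 to 1.82 FPKM in ND and from 0.610 to 2.19 FPKM in HFrD livers.

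Of 24 genes of peroxisomal fatty acid oxidation, 10 were lower and 0 higher, with a median log2 change of -0.36. *Acox2*, the oxidase of bile acid precursors and branched chains, fell from 81.0 ± 7.10 to 50.6 ± 2.27 FPKM, a log2 change of -0.66 (limma adjusted p = 0.00195). *Phyh*, which starts the oxidation of phytanic acid, fell from 1551 ± 105 to 1034 ± 152 FPKM. The bifunctional enzyme gene *Hsd17b4* fell from 176.5 ± 23.2 to 123 ± 9.53 FPKM and the thiolase gene *Acaa1a* from 52.3 ± 1.58 to 36.3 ± 6.65 FPKM. *Scp2*, the most abundant of the list, had 1571 ± 116 and 1330 ± 155 FPKM and did not pass. This count depended on single libraries, as did the genes called lower over all genes (423, and 218 without HFrD mouse 2). It was 2 without HFrD mouse 2, 3 without HFrD mouse 5, HFrD mouse 7, ND mouse 1 or ND mouse 3, 4 without ND mouse 6, and 11 without HFrD mouse 1 or ND mouse 7.

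The other ABCA genes encode lipid transporters, most of them little studied in the liver. Of 14, 7 were tested, 1 was higher and 2 were lower. *Abca3*, known for loading surfactant phospholipid into the lamellar bodies of the lung, had 9.11, 8.15, 8.05 and 9.75 FPKM in ND mice 1, 3, 6 and 7 and 10.8, 13.6, 17.3 and 12.1 FPKM in HFrD mice 1, 2, 5 and 7. The groups did not overlap. The means were 8.76 ± 0.810 and 13.5 ± 2.78 FPKM (SD, n = 4 each), with a log2 change of 0.55 (SE 0.14, limma adjusted p = 0.0339). This call was lost in 4 of 10 other settings, among them quantile normalization (adjusted p at most 0.0602). Exons of *Abca3* overlap those of D330041H03Rik on the other strand.

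*Abca8b*, *Abca8a*, *Abca9*, *Abca6* and *Abca5* lie side by side in that order on chromosome 11 of GRCm38, from 109932190 to 110337716, all on the minus strand. Of these neighbours within 405527 bases, *Abca8a* and *Abca6* were called and the other three were not. *Abca8a* had 80.5, 55.8, 57.9 and 36.6 FPKM in ND mice 1, 3, 6 and 7 and 46.5, 20.6, 19.2 and 23.3 FPKM in HFrD mice 1, 2, 5 and 7. HFrD mouse 1 was above ND mouse 7, and the other HFrD mice were below all ND mice. The means were 57.7 ± 18.0 and 27.4 ± 12.9 FPKM (SD, n = 4 each), a log2 change of -1.09 (SE 0.29, limma adjusted p = 0.0443; exact permutation p = 0.0571). *Abca6* had 91.8, 93.8, 102 and 86.1 FPKM in ND mice 1, 3, 6 and 7 and 78.4, 79.9, 67.4 and 74.5 FPKM in HFrD mice 1, 2, 5 and 7. Its fall was small but without overlap, with a log2 change of -0.31 (SE 0.09, limma adjusted p = 0.0494).

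*Abca8b*, the closest paralog of *Abca8a* in the row, had 14.2 ± 1.17 and 15.1 ± 1.28 FPKM (SD, n = 4 each), a log2 change of 0.08 (95% interval -0.13 to 0.29). *Abca9* and *Abca5* had log2 changes of 0.09 and -0.10 at levels of 1.30 to 2.04 FPKM. These paralogs may share reads. The calls of *Abca3*, *Abca8a* and *Abca6* held without ND mouse 7 or HFrD mouse 1 and were lost without any 1 of the other 6 libraries, with adjusted p of up to 0.0887, 0.112 and 0.119. Those of *Abca8a* and *Abca6* were each lost in 2 of 10 other settings.

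**Figure D5:**
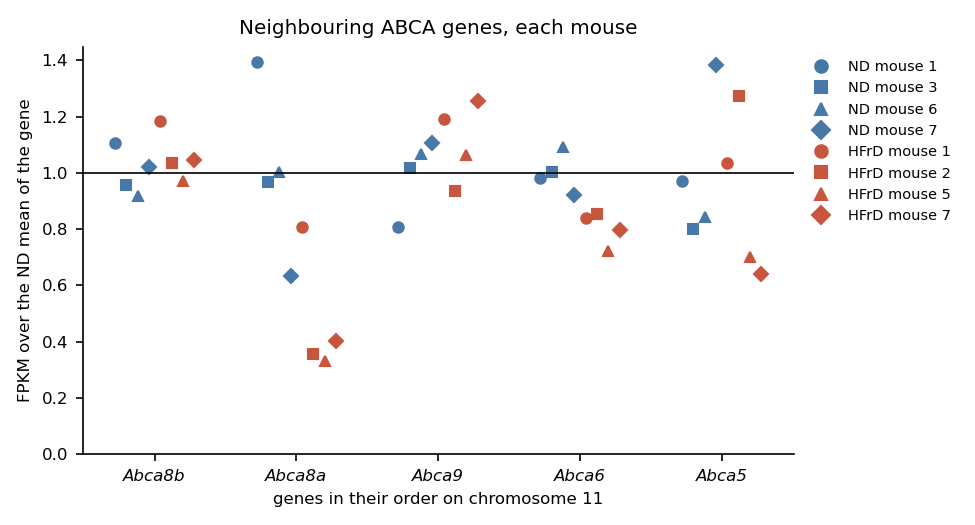
FPKM of the 5 neighbouring ABCA genes in each mouse, divided by the mean of the ND mice for that gene (y axis, from 0), in the order of the genes on chromosome 11 (x axis, not to scale). For *Abca8a* 3 HFrD mice lie between 0.333 and 0.403 and HFrD mouse 1 at 0.806, whereas for *Abca8b* the 4 HFrD mice lie between 0.973 and 1.19.

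The 250 bases before the RefSeq starts of *Abca8a* (chromosome 11, 110095938 to 110096187) and *Abca8b* (109995846 to 109996095) are shown because *Abca8a* was called and its neighbouring paralog was not. Both are on the minus strand of GRCm38.p6 and are written in the direction of transcription, with capitals for motif matches. The RefSeq start of *Abca8b* is that of the GENCODE gene, and that of *Abca8a* lies 41 bases inside it.

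Abca8a: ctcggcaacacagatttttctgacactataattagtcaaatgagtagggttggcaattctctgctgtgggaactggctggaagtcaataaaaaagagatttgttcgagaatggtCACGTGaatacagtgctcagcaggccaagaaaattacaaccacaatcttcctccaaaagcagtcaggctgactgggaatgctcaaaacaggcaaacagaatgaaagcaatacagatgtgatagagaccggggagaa

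Abca8b: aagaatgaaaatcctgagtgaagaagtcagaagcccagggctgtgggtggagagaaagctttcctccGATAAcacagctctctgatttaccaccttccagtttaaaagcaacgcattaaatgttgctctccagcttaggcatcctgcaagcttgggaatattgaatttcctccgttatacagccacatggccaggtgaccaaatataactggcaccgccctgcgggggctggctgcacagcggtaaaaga

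Of the 5 motifs, the window of *Abca8a* held CACGTG, 130 bases before the RefSeq start, and that of *Abca8b* held GATAA, 178 bases before it. CACGTG was present in 6.02% and GATAA in 22.6% of all windows of this length.

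The transporters Abcb8 and Abcb10 lie in the inner mitochondrial membrane and have been linked to iron and haem metabolism, Abcb6 has been linked to porphyrins, and Abcb9 carries peptides into lysosomes. No gene of this role was called. *Abcb6* had 20.4, 18.5, 18.1 and 14.7 FPKM in ND mice 1, 3, 6 and 7 and 17.2, 13.9, 12.8 and 15.6 FPKM in HFrD mice 1, 2, 5 and 7, and the groups overlapped (log2 change -0.25, limma adjusted p = 0.231). The mean of *Abcb8* was 7.44 ± 1.47 FPKM in ND and 10.3 ± 1.10 FPKM in HFrD livers (SD, n = 4 each), a log2 change of 0.43 (limma adjusted p = 0.0745). That of *Abcb10* was 9.90 ± 1.01 and 7.48 ± 1.23 FPKM (SD, n = 4 each), a log2 change of -0.37 (limma adjusted p = 0.0961). Of 22 genes of haem and iron-sulfur cluster synthesis, 2 were higher (*Isca2* and *Hmox1*) and 1 was lower (the mitochondrial iron importer gene *Slc25a37*). Of all genes, 5.44% were called higher and 3.69% lower. The 3 calls fell to 0 without ND mouse 1, ND mouse 3, HFrD mouse 2 or HFrD mouse 7 and to 1 without HFrD mouse 5. *Alas1*, the most abundant gene of the list, had 192 ± 26.0 and 125 ± 61.2 FPKM and did not pass.

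The ABC proteins that act on ribosomes also gave no calls. *Abce1*, which splits ribosomes after termination, had 27.0, 34.0, 30.6 and 23.6 FPKM in ND mice 1, 3, 6 and 7 and 25.4, 22.2, 23.3 and 20.9 FPKM in HFrD mice 1, 2, 5 and 7. The groups overlapped, with a log2 change of -0.31 (95% interval -0.57 to -0.04, limma adjusted p = 0.136). *Abcf3* had 12.4, 18.1, 12.9 and 14.8 FPKM and 16.4, 13.2, 11.3 and 13.4 FPKM in the same mice, with overlap. *Abcf1*, *Abcf2* and *Abcf3* had log2 changes between -0.09 and -0.05. Of 10 of their partners in ribosome recycling and initiation, 0 were called. *Abcc9*, a regulatory subunit of potassium channels, had 6.45, 6.87, 5.66 and 7.06 FPKM in ND mice 1, 3, 6 and 7 and 7.92, 6.77, 6.96 and 7.64 FPKM in HFrD mice 1, 2, 5 and 7, with overlap (log2 change 0.15, limma adjusted p = 0.392).

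The 12 members below the filter complete the family. *Abca12*, *Abca15*, *Abca16*, *Abca17*, *Abcb5* and *Abcc8* were listed at 0 in all 8 libraries. *Abca4*, *Abca13*, *Abcc12* and *Abcg4* had means under 0.1 FPKM. *Abca14* had 1.06, 0.767, 0.138 and 0.853 FPKM in ND mice 1, 3, 6 and 7 and 0.0223, 0.347, 0.133 and 0.148 FPKM in HFrD mice 1, 2, 5 and 7, and ND mouse 6 lay within the HFrD range. In the fit with no filter, *Abca14* did not pass (limma adjusted p = 0.143).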

How the data were processed

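Liver mRNA was measured in 8 libraries, 4 per diet, grouped by the submitters' labels. The authors used Cutadapt 1.9.3 for trimming and HISAT2 2.0.4 for alignment to mm10. Per the submitters' processing notes, Cufflinks and Cuffdiff were also used. The deposited values are the authors' FPKM, so each gene is scaled to the fragments of its library, and a fall of very abundant genes raises the share of all others. The paper gives a NEBNext Ultra II Directional kit and the labels a TruSeq Stranded kit, which could not be settled. Methylated RNA and *db/db* mice were not analysed here.

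The deposited FPKM were transformed as log2(FPKM + 1), and limma 3.58.1 (R 4.3.3) was run on the 11476 genes whose mean reached 0.5 FPKM (eBayes with trend, Benjamini-Hochberg adjustment, two-sided). The procedure was tested on simulated data. Ratios were compared by exact permutation over 70 divisions of the mice. Each library was taken as a separate animal, and nothing in the sources used here says that mice of the same number are related. Positions are those of GENCODE M21 on GRCm38 (mm10), and all 50 loci overlapped the authors' loci. For *Abca7*, *Abcb5*, *Abcb10*, *Abcc10*, *Abcg5* and *Abcg8* the authors' locus also holds other genes, so their values are less certain. Besides *Abca3*, *Abcg5* and *Abcg8*, exons overlapped those of a gene on the other strand for *Abca8b*, *Abcb1a*, *Abcb1b*, *Abcb9*, *Abcb10*, *Abcb11*, *Abcc9* and *Abcc10*. Exons of *Abcb6* overlapped those of *Gm29253* on the same strand. Promoter sequences are from RefSeq on GRCm38.p6. Tables were made with pandas 2.3.3 and numpy 2.4.6 in Python 3.11.15, and plots with matplotlib 3.10.9.

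Every member could be named. Values in each mouse were given for called members, for the 2 of highest mean FPKM in each role and for partners of a ratio, and, chosen after their values were seen, for *Abcb1b* and *Abca14*. From each partner list the called genes with the smallest adjusted p (up to 4) and the most abundant gene were named, and some other called genes were added after their values were seen. The values of 2 tested members and 1 of the 5 ratios are not reported here, but they stay in the counts and adjustments. The members, roles and lists were chosen with earlier results of these data known. Of the partner genes, *Gcn1* matched no row. Alternatives were other pseudocounts, filters, scalings, weights and variance models, a replicate block, and fits without single libraries.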

Additional observations from a re-analysis of the deposited data

Results flagged for a closer look

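In 4 of 76 groups of 4 mice a single mouse stood apart from the other three by Dixon's test at the 95% level, where chance gives about 1 in 20. *Abca8a* was high in HFrD mouse 1 (46.5 FPKM), and so was *Abcc10* (2.61 FPKM). *Abcb8* was low in HFrD mouse 5 (8.66 FPKM), and so was *Abcd4* (0.610 FPKM). Without HFrD mouse 1, the ratio of the mean of *Abca8a* in HFrD to that in ND livers went from 0.475 to 0.364.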

How the results depend on the processing

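Of 304 fits of single members with a library left out, 256 kept the direction and the side of the threshold, 27 lost a call, 6 gained 1 and 15 changed sign. Of 375 fits under other settings the numbers were 342, 10, 14 and 9. All 24 sign changes were in 10 members that were not called, and their cause was not tested. As log2 changes, they were *Abca2* (0.014), *Abcb11* (0.0069), *Abcb9* (-0.061) and *Abcg3* (-0.15) without HFrD mouse 1 and ND mouse 7, *Abca9* (-0.020), *Abcb9* (-0.10), *Abcc1* (-0.036) and *Abcg3* (-0.022) under quantile normalization, and *Abcb9* (-0.010) at equal medians. With a library left out, *Abca2* ranged from -0.11 to 0.056, *Abca5* from -0.21 to 0.020, *Abcb9* from -0.10 to 0.11, *Abcc1* from -0.023 to 0.18, *Abcf1* from -0.11 to 0.035, *Abcf2* from -0.12 to 0.072, *Abcf3* from -0.18 to 0.0095 and *Abcg3* from -0.046 to 0.19.

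The 1047 genes called overall became 539 to 1293 with a library left out (higher 340 to 659, lower 183 to 634), and 701 were lower without HFrD mouse 1 and ND mouse 7. Of all calls 59.6% were higher, against 51.2% under quantile normalization, 47.3% at equal medians, 46.8% after rescaling without Mup and mitochondrial genes and 48.3% without HFrD mouse 1 and ND mouse 7. The 7 ABC calls were 3 with no filter (1 higher, 2 lower) and 2 to 9 with a library left out (0 to 2 higher, 2 to 7 lower). The 4 lower members were 7 at equal medians, after rescaling or with array weights, 2 with no variance trend and 8 without HFrD mouse 1 and ND mouse 7, which were picked as nearest to the other diet.

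Of the ratios, as log2 differences with an unadjusted threshold, *Abcc3* to *Abcc2* was -1.66 and *Abca1* to *Abcg1* -0.92 without HFrD mouse 1 and ND mouse 7, where 3 mice against 3 cannot fall below an exact p of 0.1. With a library left out, *Abcc3* to *Abcc2* ranged from -1.58 to -1.20 (short of the threshold without ND mouse 1, 3 or 6) and *Abcg5* to *Abcg8* from -0.098 to 0.0098 (above 0 without HFrD mouse 5). Mouse numbers 1 and 7 occur in both diets, with correlations of 0.08 and -0.01 between the deviations of the same-numbered mice. Mice of unlike number gave -0.14 to 0.11. Both values lie within that range, and 2 values cannot decide whether the numbers pair animals. The replicate block called 1093 genes and 7 ABC members. The depth behind single values is unknown, so no counting error can be given.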

Other observations

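ABC proteins whose symbols lie outside the naming rule were also measured. *Tap1* and *Tap2*, the peptide transporter of antigen presentation, had 6.71 ± 0.931 and 4.08 ± 0.433 FPKM (SD, n = 4 each) in ND and 10.9 ± 2.90 and 5.35 ± 0.185 FPKM (SD, n = 4 each) in HFrD livers. Neither passed (log2 changes of 0.60 and 0.33, adjusted p = 0.0595 and 0.0694 from limma). *Cftr* lay below the filter, at 0.129 ± 0.0820 and 0.198 ± 0.182 FPKM (SD, n = 4 each).

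Markers of other cells were counted beside the macrophage list. Of 8 markers of sinusoidal endothelium, 2 were higher (*Oit3* and *Lyve1*), and of 10 of stellate cells and fibroblasts 0 were called, or 3 without HFrD mouse 1. Of 4 tested cholangiocyte markers and 2 of T, NK and B cells, 0 were called. Of 5 erythroid markers, *Alas2* was called as lower, a call lost without any 1 of the 8 libraries (limma adjusted p from 0.0665 to 0.114). Of 2 tested markers of pancreas and gut, *Cela1* was called as lower and kept the call without HFrD mouse 1 or HFrD mouse 7 but not without any other library (limma adjusted p up to 0.0944).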
